A study of Mus musculus with 4 samples.

Results

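The cells described here were the tumor cells of the MC38 model, taken from single-cell RNA libraries of tumors grown in wild-type (WT) mice and in mice lacking Lrrc25 (Lrrc25-/-), a leucine-rich repeat membrane protein found mainly in myeloid cells. They were chosen by raw counts of unique molecular identifiers (UMIs), each of which stands for 1 captured RNA molecule. Barcodes with fewer than 300 genes or 500 UMIs, or with over 20% of UMIs from mitochondrial genes, were left out first. Any remaining barcode was called a tumor cell if Sox9, Tnnt2 and Crabp2 together had at least 3 UMIs with at least 2 of the 3 genes detected, if Ptprc, Cdh5 and the Cd3d, Cd3e and Cd3g genes had no UMI, if C1qa, C1qb and C1qc together had at most 5 and if Pdgfra and Dcn together had at most 1. This gave 1496 cells of 33990 kept MC38 barcodes and of 56088 kept barcodes in the 4 libraries of the series. Of these, 978 came from the WT pool and 518 from the Lrrc25-/- pool.

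MC38 is a transplantable mouse tumor line established from a chemically induced colon tumor, and B16F10, the other model of the series, is a mouse melanoma line. The labels give Lrrc25-/- as the genotype of the mice and name no change to the tumor cells; they give no age or sex of the mice. Each library pooled tumor pieces of 100 mm3 from 3 mice, taken on day 26 for MC38 and on day 14 for B16F10, with no further treatment. CD45+ cells were isolated with magnetic beads and added to the unsorted suspension at 5:1, so the share of tumor cells in a library was set in part by that step. There was 1 pool per genotype. A difference between pools therefore carries no replicate check, no p-value is given, genotype and pool cannot be told apart, and the intervals, all at 95%, cover counting error only.

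As background, a tumor cell in a mouse is read by the immune system through peptides on MHC class I molecules. Interferon gamma from T cells and natural killer cells acts on the tumor cell in part through IRF1, raising the immunoproteasome, the peptide transporter and class I genes, and also checkpoint ligands and the chemokines CXCL9 and CXCL10. Tumor cells in turn release chemokines and colony-stimulating factors that draw in and feed myeloid cells.

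The MC38 libraries held 105338548 (WT) and 118098009 (Lrrc25-/-) UMIs. The tumor cells were deep, with a median of 16554 UMIs in the WT pool, against 18984.5 in the Lrrc25-/- pool, and summed to 16571012 and 9672989 UMIs. Macrophages of the same libraries (Ptprc detected, at least 6 C1q UMIs, no Cd3 UMI and none of the 3 tumor genes) numbered 6497 and 5619, with medians of 5108 and 6956 UMIs. The WT and Lrrc25-/- MC38 libraries shared 247 cell barcodes, and 1 of these was a tumor cell in both. Levels are given as counts per 1000000 UMIs, summed over the cells of a gate (CPM). Lrrc25 had 31 UMIs, or 1.87 CPM (1.27 to 2.66), in the WT-pool tumor cells and 1 UMI in those of the Lrrc25-/- pool, against 93.5 and 1.92 CPM in macrophages.

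Sox9, a transcription factor of stem and progenitor cells in several epithelia and of cartilage, was the most abundant of the 3 genes of the rule, at 844 CPM in the WT pool and 749 CPM in the Lrrc25-/- pool. Tnnt2, the cardiac troponin T, measured 356 and 445 CPM, and Crabp2, a retinoic acid binding protein, 256 and 298 CPM. Since these genes chose the cells, the values are descriptions. In mm10 coordinates Sox9 lies on chromosome 11 (112782224 to 112787760, plus strand), Tnnt2 on chromosome 1 (135836354 to 135852260, plus strand) and Crabp2 on chromosome 3 (87948666 to 87953376, plus strand). All 3 were detected together in 729 of 978 cells (74.5%) and 422 of 518 cells (81.5%). The rule asked for far less than most cells held: the median cell had 22 UMIs of the 3 genes in the WT pool, against 25 in the Lrrc25-/- pool. Only 36 and 15 cells stood at the threshold of 3 UMIs, with median depths of 1848 and 1793 UMIs. Just outside it stood 56 and 52 barcodes with 2 UMIs of 2 genes, of even lower depth (medians 899.5 and 987.5), whose C1qa level of 491 and 888 CPM compared with 91.5 and 303 CPM in the cells just inside.

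The labels name MC38, a colon line, and the listed genes of colon and simple epithelium were near 0 in the tumor cells. The 15 colon epithelium genes summed to 1.75 CPM in the WT pool and 1.65 CPM in the Lrrc25-/- pool, and 7 of the 15 had no UMI in either. Cdx2, the intestinal homeobox factor, and Krt20 were among those at 0, which allows up to 0.181 CPM in the WT pool and 0.310 CPM in the Lrrc25-/- pool. Of 14 general epithelial genes, 6 had no UMI, among them Krt18. Epcam had 1 and 0 UMIs, and Krt8 had 2 and 3. Cdh1, the epithelial cadherin, stood at 2.05 and 2.69 CPM, below its 9.29 and 6.31 CPM in macrophages. Lgr5, a receptor of intestinal stem cells, had 2 UMIs in each pool.

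The 13 genes of the mesenchyme list were at uneven levels. Vim, the intermediate filament of mesenchymal cells, reached 2942 and 2905 CPM, a level also found in macrophages (2988 and 2495 CPM). Zeb1 (214 and 156 CPM), Prrx1 (182 and 180.3 CPM) and Twist1 (56.3 and 56.3 CPM), transcription factors that repress epithelial genes or mark mesenchyme, were above their macrophage levels, which lay between 0.818 CPM for Twist1 and 29.3 CPM for Zeb1, although T cells had more Zeb1 (535 and 846 CPM). Zeb2, a relative of Zeb1, was at 282 and 293 CPM, below its 1574 and 1164 CPM in macrophages, and the matrix protein gene Fn1 likewise at 114 and 102 CPM against 763 and 569 CPM. Snai1 (12.9 and 10.3 CPM), Snai2 (7.97 and 5.27 CPM) and Tagln (0.362 and 0.310 CPM) were low. Sparc, a matrix glycoprotein, was at 776 and 890.4 CPM. Collagen RNA was uneven: Col1a2 measured 133 and 119.7 CPM and Col3a1 123 and 97.3 CPM, while Col1a1, the partner chain of Col1a2 in type I collagen, measured only 5.73 and 3.72 CPM and Lum had no UMI. Beside Tnnt2, heart and skeletal muscle genes were near 0: the 17 listed genes summed to 12.1 CPM in each pool, with Tnni1 the highest at 5.91 and 6.10 CPM. Beside Sox9, the cartilage matrix genes Acan, Col9a1 and Matn1 had no UMI, although Sox5, which acts with Sox9 in cartilage, was at 119.7 and 129 CPM. The plot of marker levels sets these lists side by side.

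**Figure D1:**
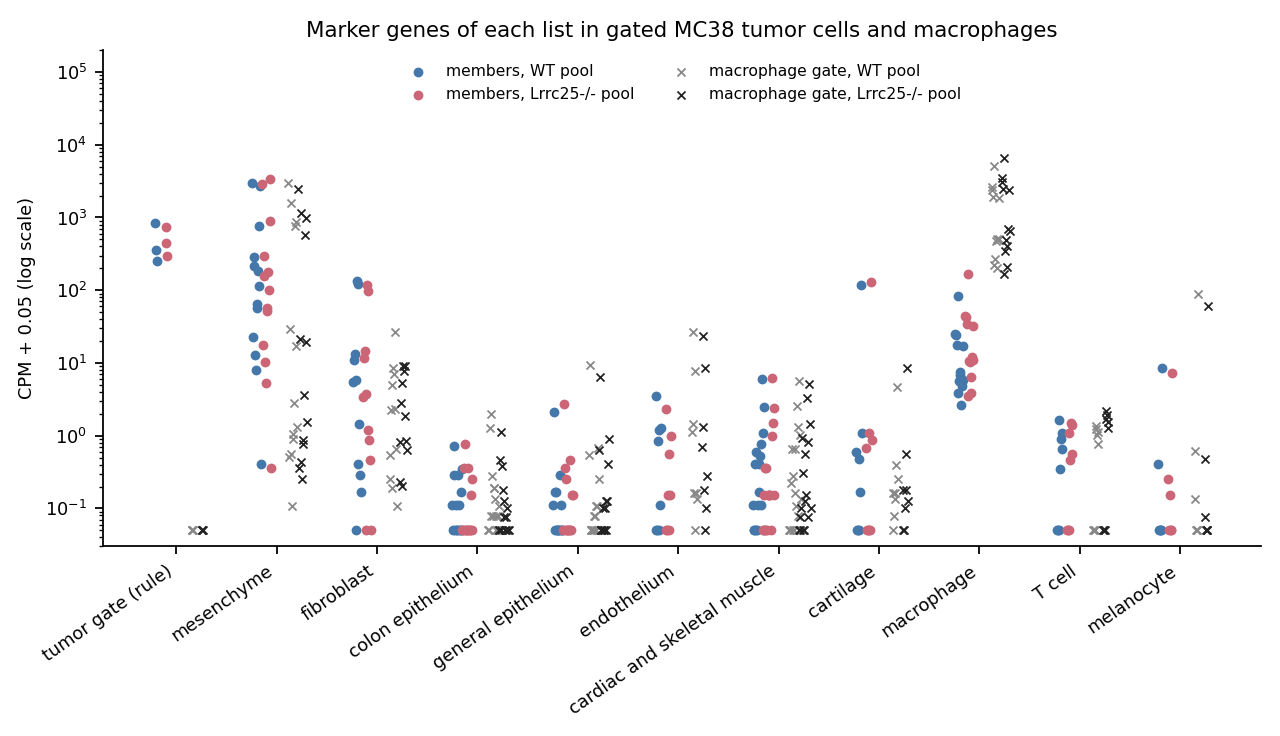
CPM of each marker gene (log axis, 0.05 added) in MC38 tumor cells (circles) and in macrophages of the same libraries (crosses), 1 point per gene, pool and gate. Colon and general epithelial genes sat at or below 2.69 CPM in the tumor cells of both pools, while Vim reached 2942 and 2905 CPM; the 3 genes of the rule are at 0 in macrophages by the definition of that gate.

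The cells are called tumor cells by the rule, and no further cell type name is given, since colon and simple-epithelium genes were near 0, some genes of squamous epithelium were present, and the fibroblast, muscle and cartilage lists each had genes at 0. By the 25 genes that stood highest over both macrophages and T cells, the cells were led, after the genes of the rule, by Cald1, an actin-binding protein (1033 and 1003 CPM), Rhox5, a homeobox gene of the reproductive tract that many tumor lines express (218 and 248 CPM), Tm4sf1 (529.8 and 544 CPM) and Hmga2, a chromatin protein of fetal tissue (679 and 635 CPM). Hmga2 (chromosome 10, 120361275 to 120476469, minus strand) was detected in 62.0% and 58.1% of tumor cells thinned to 2000 UMIs, against 2.22% and 1.55% of macrophages at the same depth. Other members of the oncofetal list were the RNA-binding proteins Igf2bp2 (96.6 and 82.1 CPM) and Igf2bp3 (80.5 and 65.4 CPM), whereas Igf2 had 0.121 and 0.103 CPM. The leading 25 also held Il34, a ligand of the macrophage receptor CSF1R, at 299.6 and 306 CPM against 4.86 and 3.78 CPM in macrophages, Dkk2, a secreted Wnt modulator, at 163 and 169.9 CPM, and Krt14, a keratin of stratified epithelium, at 177 and 242 CPM.

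Krt14 was thus present without the simple-epithelium keratins. It was detected in 26.8% and 31.3% of tumor cells at 2000 UMIs, against 0.378% and 0.860% of macrophages. Krt16 (57.6 and 70.1 CPM), Anxa8 (55.3 and 72.4 CPM) and Slurp1 (86.4 and 161 CPM), likewise genes of squamous epithelium, were unevenly spread to differing degrees. No marker list was set for squamous epithelium, so its genes that were absent are not counted here. The top 10% of cells by UMIs of the gene held 66.2% and 70.5% of Krt16 UMIs. For Slurp1 they held 67.0% and 61.7%, and for Anxa8 51.0% and 43.0%. For Twist1, at a level near that of Krt16, the shares were 37.3% and 37.1%.

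Among genes of growth control, Cdkn2a and Cdkn2b, neighbouring inhibitors of the cyclin D kinases, had no UMI in either pool. With 16571012 and 9672989 UMIs summed, this allows up to 0.181 and 0.310 CPM, while macrophages had 1.32 and 2.84 CPM of Cdkn2a. Trp53 was at 253 and 254 CPM and its target Cdkn1a at 195 and 211 CPM. Egfr had 2 and 1 UMIs, whereas Fgfr1 (146 and 128 CPM), Axl (124 and 128 CPM) and Nrg1 (249 and 250.5 CPM) were expressed. Xist, the RNA of the inactive X chromosome, was at 10.4 and 15.4 CPM in tumor cells and at 659 and 668 CPM in macrophages. The Y-linked Eif2s3y, Kdm5d and Uty had no UMI in the tumor cells.

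The limit on Pdgfra and Dcn removed more cells than any other step. Of 2349 WT-pool and 1932 Lrrc25-/--pool barcodes that passed the marker part of the rule, 606 and 422 failed on Pdgfra and Dcn alone. These cells had Sox9 at 854 and 803 CPM, Hmga2 at 632 and 489 CPM and Xist at 9.48 and 14.7 CPM, with 844 and 749, 679 and 635, and 10.4 and 15.4 CPM in the cells kept, and median depths of 17881.5 and 20186 UMIs. Those with over 2 UMIs of the pair had Dcn, a matrix proteoglycan, at 391 and 360 CPM, Col1a1 at 35.1 and 20.99 CPM and Lum at 1.28 and 0.412 CPM. Without this limit, 6 of the 43 genes named for a difference below no longer passed the size rule: Itgb4, Arsa, Ier3, Magi3, Sema3c and Stard13.

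Tumor cells made up 5.66% of kept barcodes in the WT pool (5.32 to 6.01) and 3.10% in the Lrrc25-/- pool (2.84 to 3.38). Without the limit on Pdgfra and Dcn, which was an alternative added after the data had been seen, the shares were 9.16% and 5.63%. The order of the pools was the same with stricter markers (4.18% and 2.48%) and among barcodes of at least 2000 UMIs (7.41% and 3.90%). The criteria on immune genes took unequal shares of marker-positive barcodes: Ptprc excluded 27.0% in the WT pool, against 37.7% in the Lrrc25-/- pool, and the C1q limit 11.7% and 22.6%. The part of that difference in the shares of tumor cells was not tested.

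Most tumor cells carried RNA of the cell cycle. Thinned to 2000 UMIs, 85.2% of 947 WT-pool cells (82.8 to 87.4) and 85.8% of 499 Lrrc25-/--pool cells (82.4 to 88.7) had at least 2 UMIs of 20 S-phase and 22 G2/M genes. In macrophages the shares were 39.9% and 35.5%. Without thinning the tumor-cell shares were 99.0% in both pools, and 31 and 19 shallower cells were left out. Top2a, which untangles DNA at mitosis, was at 831 and 669 CPM and was detected in 49.5% and 44.9% of thinned tumor cells, against 15.7% and 12.6% of macrophages. Mki67, the proliferation antigen, was at 295 and 272 CPM. None of the 20 S-phase genes and none of the 22 G2/M genes passed the size rule described next, and the list medians were -0.11 and -0.04 on the log2 scale.

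Few genes differed in size between the pools. By a size rule, a gene had to reach 20 CPM in one of the pools and 50 UMIs over both, and was then called higher or lower where the ratio of CPM + 1 between the Lrrc25-/- and WT pools was 1.5-fold or more either way. Of 6490 genes measured, 53 were higher (0.817%) and 64 lower (0.986%), 1.8% in either direction. The median log2 fold of all measured genes was -0.04. TMM scaling of the pools moved the split to 68 higher and 39 lower. Of the 53 higher genes, 33 had a higher macrophage level, taking the larger of the 2 libraries, than the smaller of their 2 tumor-cell levels. For 21 of them macrophages were over 10-fold higher in both libraries. Of the 64 lower genes, 17 met the first of these criteria and 0 the second. The shares over all measured genes are not given here. The 33 include Gbp5, which was higher in tumor cells in each library (36.8 and 59.4 CPM, against 28.7 and 37.4 CPM in macrophages).

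**Figure D2:**
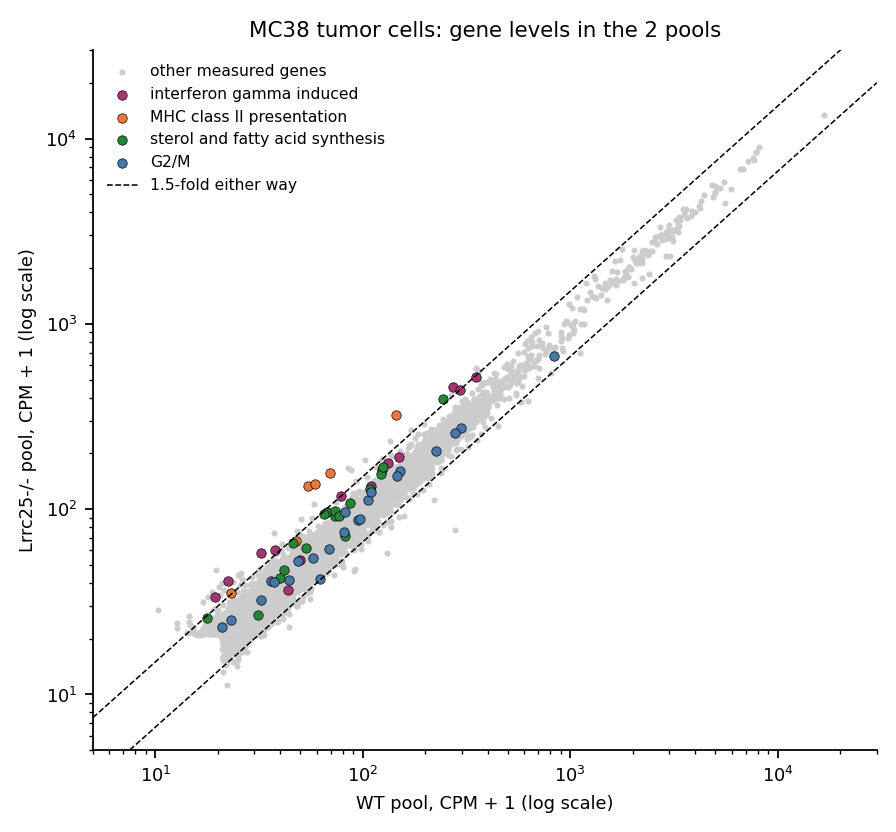
Level of each of 6490 measured genes in MC38 tumor cells of the WT pool (x) and the Lrrc25-/- pool (y), as CPM + 1 on log axes, with dashed lines at 1.5-fold. Most genes lie between the lines, 4 class II genes lie clearly above them, and 6 interferon gamma genes lie above the upper line.

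Macrophage RNA itself was among what differed. The 12 macrophage markers summed to 204 CPM in WT-pool tumor cells and 377 CPM in Lrrc25-/--pool tumor cells, which was 1.23% and 1.79% of their level in macrophages. All 5 that were measured passed the size rule upward, beside 0.817% of all measured genes. Lyz2, a lysozyme of macrophages, was at 83.5 and 165 CPM, and no marker of the list was at 0 in either pool. For each gene below, the macrophage level times that percentage gives the CPM that macrophage RNA would add if it came in at the same rate. For the 12 genes named highest by the rule, this was at most 0.643% of the tumor-cell level. A low value was set in advance there, since genes more abundant in macrophages had been left out of those 12. For the measured class II genes it ran from 7.28% (H2-DMb1, WT pool) to 56.4% (Cd74, WT pool). The rule capped C1q in tumor cells, and the macrophage gate required it, so the rate may be too low. The 5 sex-linked genes, led by Xist and not used by the rule, stood at 1.59% and 2.32% of their macrophage level. At that rate each part given here and below would be larger. The part of macrophage RNA in the differences was not tested.

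Of the listed genes that interferon gamma induces, 13 of the 14 measured had a log2 fold above 0, beside 41.4% of all measured genes. Of 18 listed, 6 passed the size rule upward and none downward, set against 0.817% of all genes, and the median log2 fold was 0.56 against -0.04 for all genes and 0.23 for the same genes in macrophages. Irf1 (chromosome 11, 53770014 to 53778374, plus strand), the transcription factor that carries much of the response, had 272 CPM in the WT pool and 456 CPM in the Lrrc25-/- pool, a ratio of 1.68 (1.61 to 1.75). Its macrophage levels were 76.8 and 101 CPM, and macrophage RNA at the rate above would make up 0.348% and 0.396% of the tumor-cell values. Socs1, a feedback inhibitor of JAK signaling, measured 31.4 and 57.1 CPM (ratio 1.82, 1.61 to 2.05). Gbp5, a guanylate-binding protein of cell-autonomous defense, measured 36.8 and 59.4 CPM (ratio 1.61, 1.44 to 1.81). Irgm1, an immunity-related GTPase, stood at 77.2 and 116 CPM (ratio 1.51, 1.39 to 1.63), just past the size rule, which it passed in 10 of the 15 other settings.

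Cd274, the checkpoint ligand PD-L1, was low, at 18.3 CPM in the WT pool and 32.8 CPM in the Lrrc25-/- pool, a ratio of 1.79 (1.53 to 2.10). Macrophages had 234 and 313 CPM of it, and their RNA at the rate above would make up 15.8% and 17.1% of the tumor-cell level. Cxcl9, a chemokine for T cells, passed the rule at 21.3 and 39.9 CPM, but the same rate from macrophages (1065 and 1432 CPM) would supply 61.6% and 64.2% of it. Among genes of the list short of the rule, Cxcl10, a second chemokine for T cells, was at 349 and 516 CPM (log2 fold 0.56) and Gbp2 was at 294 and 436 CPM (log2 fold 0.57). Ifngr2, a receptor chain, was the one measured member below 0, with 42.7 and 35.7 CPM (log2 fold -0.25). The list median lay between 0.38 and 0.61 over the 15 other settings tried. In the cells with no C1q UMI and at most 1 of Lyz2, only 247 and 32 in number, the log2 fold of Gbp5 was -0.16. Those cells summed to 3393587 and 334933 UMIs, at median depths of 13808 and 10071. Macrophage markers still summed to 86.3 and 128 CPM in them, so the difference in macrophage RNA was not removed.

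The sequence before the start site is printed for the 4 genes of the list that passed the size rule, have an entry in the RefSeq promoter table (GRCm38.p6) and hold a match to an interferon motif. Each stretch is the 250 bases upstream of the annotated start, 5′ to 3′ on the gene's strand. Capitals mark TTCNNNGAA, the gamma-activated sequence, and a pair of GAAA separated by any 2 bases, on either strand, the core of the interferon-stimulated response element; the 2 motifs share no letters in these stretches, while 2 copies of the latter overlap in Socs1 and in Irgm1.
Irf1 (chr11:53769764-53770013, plus): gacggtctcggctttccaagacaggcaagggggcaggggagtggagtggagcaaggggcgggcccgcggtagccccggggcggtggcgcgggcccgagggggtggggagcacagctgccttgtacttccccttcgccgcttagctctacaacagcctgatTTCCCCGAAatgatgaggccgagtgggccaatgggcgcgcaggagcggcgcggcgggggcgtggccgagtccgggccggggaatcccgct
Socs1 (chr16:10785537-10785786, minus): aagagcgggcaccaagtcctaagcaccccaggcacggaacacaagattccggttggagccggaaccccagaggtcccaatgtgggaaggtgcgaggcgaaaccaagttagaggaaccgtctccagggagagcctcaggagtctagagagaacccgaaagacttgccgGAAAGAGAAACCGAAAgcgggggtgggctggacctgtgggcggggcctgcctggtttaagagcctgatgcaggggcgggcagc
Gbp5 (chr3:142496684-142496933, plus): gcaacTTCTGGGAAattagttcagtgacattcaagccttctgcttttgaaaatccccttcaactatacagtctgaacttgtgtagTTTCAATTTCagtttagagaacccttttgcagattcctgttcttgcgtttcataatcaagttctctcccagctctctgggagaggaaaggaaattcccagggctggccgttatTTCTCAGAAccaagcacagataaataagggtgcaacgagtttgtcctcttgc
Irgm1 (chr11:48871421-48871670, minus): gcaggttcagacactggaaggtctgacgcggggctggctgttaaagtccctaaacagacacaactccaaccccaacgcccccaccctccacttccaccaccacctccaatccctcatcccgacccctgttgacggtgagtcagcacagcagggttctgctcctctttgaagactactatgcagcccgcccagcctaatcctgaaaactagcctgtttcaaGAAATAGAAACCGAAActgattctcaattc
Irf1 held 1 gamma-activated sequence, Gbp5 held 2 and also 1 response element core, and Socs1 and Irgm1 held 2 overlapping cores each. A second annotated start of Irf1 had neither motif. In windows of 300 bases, which run 50 bases past the start, 10 of 16 listed interferon genes with an entry (5 with the first motif and 8 with the second) held a match. Over all 27025 symbols in the table the shares were 12.9% for either motif, 9.55% for the first and 3.99% for the second. The 16 include Psmb8, Psmb9 and Ubd of the next paragraph, of which Psmb8 held a gamma-activated sequence. A match describes the letters only, and the promoters of genes that did not pass the rule, such as Gbp2, Gbp3, Gbp7 and Cxcl10, also held them.

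Class I presentation genes were abundant in both pools, and their median lay above that of all genes. Of 18 class I presentation genes, 17 were measured, and 2 were higher by the size rule, beside 0.817% of all measured genes. Their median log2 fold was 0.35, against 0.30 for the same genes in macrophages. Psmb9 (chromosome 17, 34181987 to 34187764, minus strand), a catalytic subunit of the immunoproteasome, had 134 CPM in the WT pool and 232 CPM in the Lrrc25-/- pool (ratio 1.73, 1.63 to 1.84). Psmb8, its partner subunit, had 266 and 411 CPM (ratio 1.55, 1.48 to 1.62). The class I heavy chain H2-K1 stood at 1731 and 2203 CPM (log2 fold 0.35) and B2m, the light chain, at 2687 and 2977 CPM (log2 fold 0.15), with 3857 and 4211 CPM of B2m in macrophages. Ubd (chromosome 17, 37193892 to 37196095, plus strand), a ubiquitin-like protein induced by interferon gamma, was higher by the rule at 49.5 and 87.0 CPM (ratio 1.76, 1.60 to 1.94) and nearly absent from macrophages (1.24 and 3.58 CPM). It was detected in 8.03% of thinned tumor cells of the WT pool and 14.4% of those of the Lrrc25-/- pool. Its log2 fold was -0.15 in the 247 and 32 cells with no C1q UMI and at most 1 of Lyz2.

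Class II presentation genes had the largest list median, 1.16, with 5 of 6 measured genes past the rule, all upward, beside 0.817% of all measured genes, and 0.63 in macrophages. One of the 5, H2-DMa, passed in only 7 of the 15 other settings. Cd74, the invariant chain, was at 144 CPM in the WT pool and 320.1 CPM in the Lrrc25-/- pool (ratio 2.22, 2.10 to 2.34), while macrophages held 6595 and 10027 CPM. H2-Ab1, a class II beta chain, was at 53.3 and 133 CPM (ratio 2.49, 2.28 to 2.71). Macrophage RNA at the rate of the macrophage markers would supply 56.4% and 56.1% of Cd74 and 47.4% and 45.3% of H2-Ab1. The H2 and Gbp genes have close copies, so their counts may be split between genes. Ciita, the master activator of class II genes, was at 3.86 and 4.14 CPM, under the size rule's minimum.

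**Figure D3:**
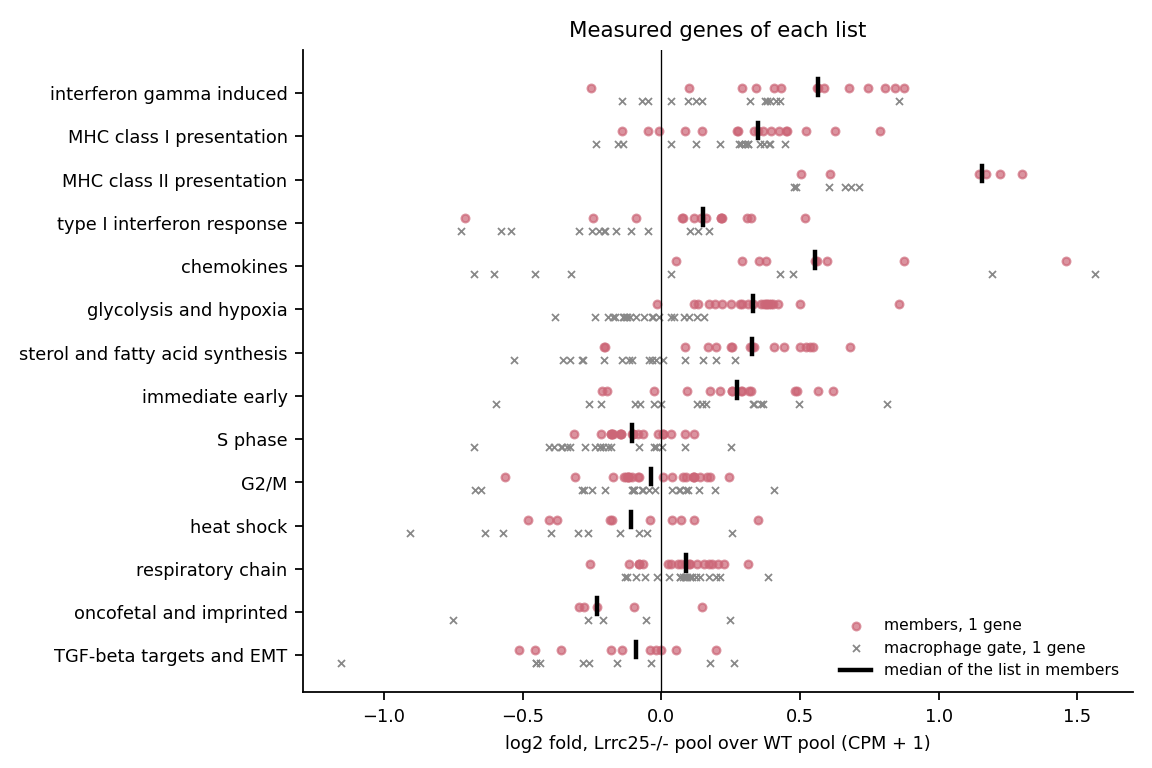
Log2 fold (Lrrc25-/- pool over WT pool, CPM + 1) of each measured gene of 14 lists in MC38 tumor cells (circles, with a bar at the list median) and in macrophages of the same libraries (crosses). The bar stands at 1.16 for class II, 0.56 for interferon gamma, 0.33 for glycolysis and for sterol synthesis and -0.04 for G2/M genes.

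More tumor cells of the Lrrc25-/- pool carried interferon gamma genes at matched depth. Thinned to 2000 UMIs, 55.1% of WT-pool tumor cells (51.9 to 58.3) and 71.7% of Lrrc25-/--pool tumor cells (67.6 to 75.7) had at least 2 UMIs of the interferon gamma list. The median cell had 2 UMIs in the WT pool, against 3 in the Lrrc25-/- pool, and the 90th percentile was 9 and 11. Macrophages had 76.8% and 86.5% of cells at 2 or more. Without thinning, the tumor-cell shares were 94.99% and 97.1%. Cells with no UMI of the list were 25.3% in the WT pool, against 14.8% in the Lrrc25-/- pool. Irf1 was detected in 35.4% and 48.9% of cells, while macrophage detection was 14.6% and 16.5%.

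Cxcl10 was concentrated in few cells: the top 10% of cells held 81.7% of its UMIs in the WT pool, against 81.3% in the Lrrc25-/- pool, and its variance across thinned cells was 7.61 and 7.63 times its mean. Over the 5230 genes with a mean of at least 0.05 UMIs in both pools, the median of that ratio was 1.04 in each, and 53 genes were over 2 in both. The highest ratios were those of Gm42418 (36.5 and 30.7) and Malat1 (10.1 and 11.4), and the genes of this paragraph beside Cxcl10 were picked after their values were seen. Others over 2 were Ccl2 (8.26 and 11.0), Mt1 (4.57 and 6.81), Cxcl1 (4.28 and 5.06), Ccl7 (3.17 and 4.36), Cryab (3.16 and 4.42) and Gbp2 (2.68 and 3.56). In cells with fewer than 2 cell-cycle UMIs, summed interferon gamma genes were at 1496 CPM in the WT pool (140 cells) and 2028 CPM in the Lrrc25-/- pool (71 cells), and in the other cells at 1764 and 2450 CPM.

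**Figure D4:**
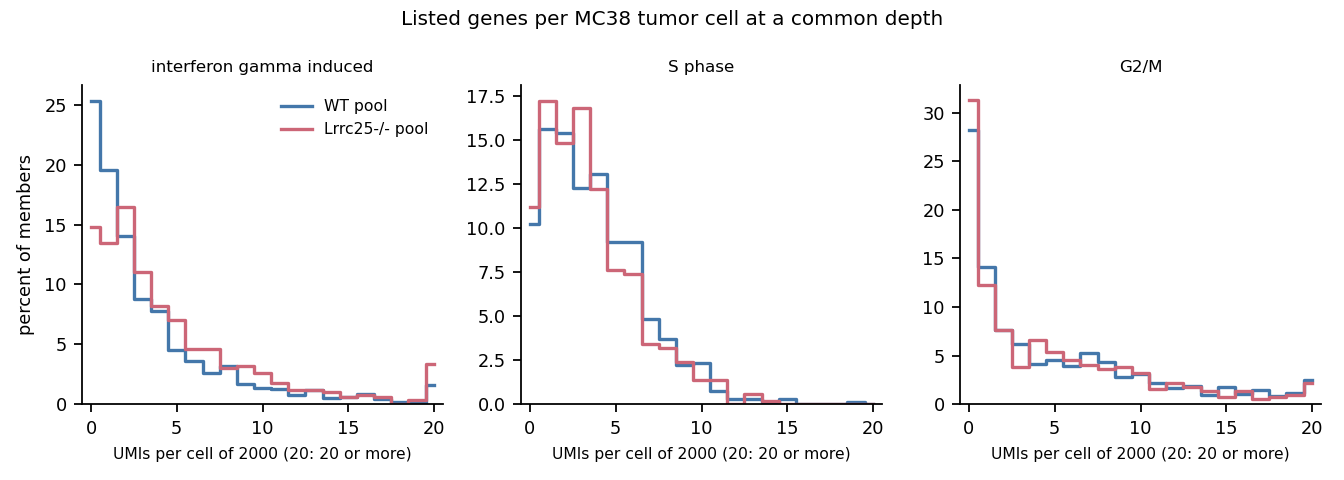
Percent of MC38 tumor cells (y) by UMIs per cell of 3 gene lists (x), with each cell thinned to 2000 UMIs and the last step holding cells with 20 or more. For the interferon gamma list the WT pool has 25.3% of cells at 0 and the Lrrc25-/- pool 14.8%; for S-phase and G2/M genes the pools trace similar steps.

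Chemokines and cytokines that tumor cells send to myeloid cells were present in both pools. Ccl2, the main monocyte chemokine, was at 1080.0 and 1402 CPM (log2 fold 0.38), above its 685 and 451 CPM in macrophages. Of 17 listed chemokines, 9 were measured and 3 passed the rule, all upward (Ccl8, Cxcl9 and Cxcl16), beside 0.817% of all measured genes. Ccl8 was at 9.35 and 27.5 CPM, of which macrophage RNA at the rate above (486 and 1113 CPM in macrophages) would supply 64.1% and 72.4%. Cxcl16 measured 18.1 and 27.9 CPM, with 29.8% and 39.0% by the same arithmetic and a log2 fold of -0.11 in the 247 and 32 cells. The list's median log2 fold was 0.55 in tumor cells and 0.04 in macrophages. Csf2, the growth factor GM-CSF, had 19.3 CPM in the WT pool and 36.8 CPM in the Lrrc25-/- pool (ratio 1.91, 1.63 to 2.22), with 0.403 and 0.537 CPM in macrophages. It came from few cells: 10.2% and 13.5% of tumor cells had a UMI at full depth. The top 10% of cells held 99.1% and 94.7% of its UMIs, which follows largely from that low detection. Csf1 and Il34, both ligands of CSF1R, were at 81.1 and 101 CPM and 299.6 and 306 CPM. Mif stood at 981 and 1277 CPM and Vegfa at 138.8 and 151 CPM.

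Sterol synthesis genes had a median log2 fold of 0.33 in tumor cells and -0.10 in macrophages of the same libraries, with 1 of 17 measured genes higher by the rule, beside 0.817% of all measured genes. Fdps (chromosome 3, 89093588 to 89101959, minus strand), which makes farnesyl diphosphate, was that gene, at 243 CPM in the WT pool and 389.7 CPM in the Lrrc25-/- pool (ratio 1.60, 1.53 to 1.68). Its macrophage levels were 25.1 and 30.4 CPM. In the same 247 and 32 cells the log2 fold of Fdps was -0.10 and the list median -0.03. Acat2, the acetoacetyl-CoA thiolase of the same route, was named by the rule on folds, at 25.3 and 41.0 CPM (ratio 1.62, 1.41 to 1.87), with a log2 fold of -0.23 in those cells. Other list members were Cyp51 at 124 and 168 CPM and Hmgcs1 at 122 and 154 CPM. The share of thinned tumor cells with at least 2 UMIs of the list was 59.3% in the WT pool (56.1 to 62.5) and 71.3% in the Lrrc25-/- pool (67.2 to 75.3), and in macrophages 23.2% and 21.6%.

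Glycolysis and hypoxia genes stood at a median of 0.33, against -0.09 in macrophages. Of 21 measured genes, 20 were above 0, beside 41.4% of all measured genes. By the size rule 1 was higher, beside 0.817% of all measured genes. That gene was Ankrd37, a hypoxia-induced gene, at 11.6 and 21.9 CPM (ratio 1.88, 1.54 to 2.30). Gapdh was at 1316 and 1739.9 CPM, Pgk1 at 648 and 844 CPM and Ldha at 706 and 821 CPM. Immediate early genes had a median of 0.27 (0.14 in macrophages). Ier3, an early gene of stress and growth signals, passed the rule at 363 and 559 CPM (ratio 1.54, 1.48 to 1.60), though its log2 fold of 0.49 without the limit on Pdgfra and Dcn did not. Jun measured 1184 and 1662 CPM. Type I interferon genes had a median of 0.15, and the 1 of 14 past the rule, Ifi44, was lower, beside 0.986% of all measured genes: 26.6 and 15.9 CPM, with 17.7 and 10.4 CPM in macrophages. For heat shock and respiratory chain genes the medians were -0.11 and 0.09, with none past the rule of 10 and 19 measured.

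The other genes with the largest ratios upward were Slurp1, a secreted protein of keratinocytes, at 86.4 and 161 CPM (ratio 1.87, 1.74 to 2.01), and Nppb, the natriuretic peptide BNP, at 102 and 183 CPM (ratio 1.80, 1.68 to 1.92). Cryab, a small heat shock protein, was at 349 and 574 CPM (ratio 1.65, 1.59 to 1.71). Macrophages had 4.69 and 11.1 CPM of Cryab. Gja4, a gap junction protein, Itgb4, the integrin of hemidesmosomes, and Arsa, a lysosomal sulfatase, had ratios of 1.71 (1.46 to 2.01), 1.67 (1.38 to 2.02) and 1.60 (1.44 to 1.77). Itgb4 passed the rule in 8 of the 15 other settings. Thbs1, a matrix glycoprotein listed with the matrix genes, passed the rule at 30.4 and 46.6 CPM, with macrophages at 1082 and 865 CPM.

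Lower in the Lrrc25-/- pool was Prl2c2, a placental prolactin family gene, at 21.1 and 10.2 CPM (ratio 0.485, 0.384 to 0.607), in a family of near-identical copies whose reads may be split between genes. Slit2, an axon guidance ligand, was at 136 and 79.1 CPM (ratio 0.580, 0.534 to 0.630) and almost absent from macrophages (2.24 and 1.18 CPM). Smc4, a condensin subunit, was at 625 and 382 CPM, and in macrophages at 148 and 89.6 CPM. Kcnq1ot1, an antisense RNA of the Kcnq1 locus whose reads cannot be told from those of its partner without strand, was at 89.8 and 45.3 CPM in tumor cells and at 35.9 and 14.9 CPM in macrophages. The mitochondrial mt-Nd3, picked after its values were seen, was at 277 and 76.6 CPM in tumor cells and at 279.7 and 75.1 CPM in macrophages. Of 13 measured mitochondrial genes, 4 were lower by the rule, beside 0.986% of all measured genes. The remaining genes named by the rule, Cenpk, Amy1 (which has near-identical copies), Esf1, Stard13, Larp1b, Magi3, Itgb3bp and Sema3c, had ratios between 0.514 and 0.611. All of them were also lower in macrophages of the Lrrc25-/- pool, with log2 folds between -0.56 (Cenpk) and -0.24 (Larp1b). Cyp26b1, which degrades retinoic acid, was at 47.4 and 29.1 CPM (ratio 0.613, 0.533 to 0.704) while its list-mate Crabp1 was at 41.6 and 45.9 CPM. Znrf3, which removes Wnt receptors, was at 41.5 and 26.8 CPM (ratio 0.645, 0.557 to 0.745). Several of these calls were lost in other settings: Znrf3 passed in 7 of 15, with log2 folds up to -0.21, Sema3c in 9 (up to -0.17), Cyp26b1 in 10 (up to -0.09), and Magi3 and Stard13 in 12 (up to -0.09 and -0.11).

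**Figure D5:**
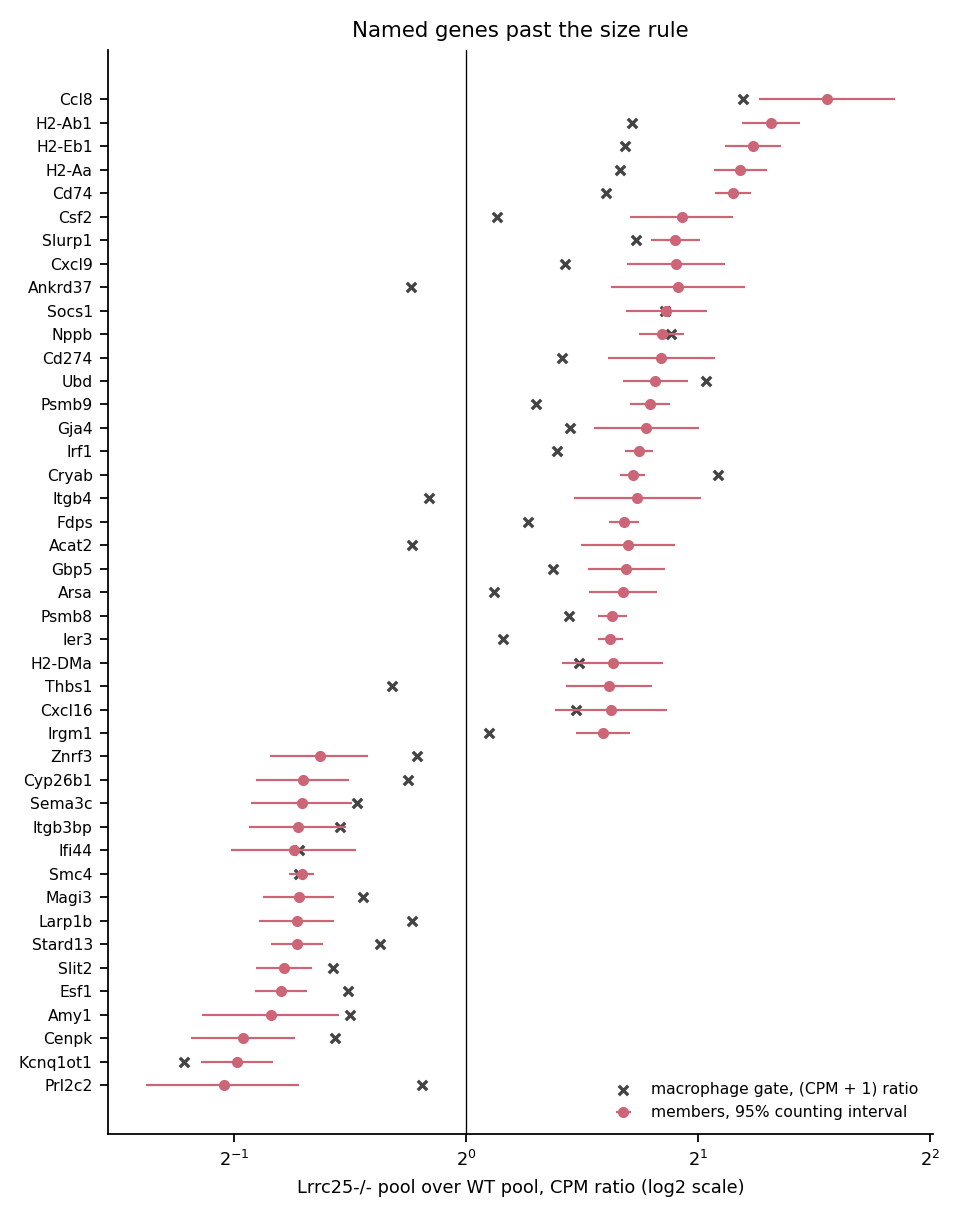
CPM ratio of the Lrrc25-/- pool over the WT pool (log2 axis) for each gene named by the size rule in MC38 tumor cells (circles, with the counting interval), and the ratio of CPM + 1 in macrophages of the same libraries (crosses). Irf1 stands at 1.68 in tumor cells, above its macrophage cross, whereas the crosses of Smc4 and Socs1 lie on their circles.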

How the data were processed

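Single-cell 3′ RNA libraries from 2 MC38 and 2 B16F10 pools were analysed. The authors deposited whole UMI counts per gene and cell barcode, on mm10 per the submitters' processing notes. The alignment and counting tools, and whether strand was used, were not given in the sources used here. Barcodes and cells were gated on raw counts (Python 3.11.15, numpy 2.4.6, scipy 1.17.1, pandas 2.3.3), and counts were summed per pool and gate. Each library pooled 3 mice, so the spread between mice was not seen and no test was made. Intervals are exact Poisson or Clopper-Pearson intervals at 95%, and a count of 0 allows 3 counts. For shares of cells, each cell was thinned to 2000 UMIs with seed 1, in 1 random draw whose spread the intervals leave out.

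Named genes were the 25 with at least 50 CPM in both pools and the largest ratio over macrophages and T cells, the 12 largest folds in each direction among genes past the size rule (leaving out genes more abundant in macrophages, and mitochondrial, ribosomal, hemoglobin, antigen receptor, sex-linked and unnamed genes), each listed pathway gene past the rule, and up to 5 more per list for their level. The members and lists were chosen with earlier results of these data known. Doublets were not removed: Scrublet (scanpy 1.11.5) marked 0.00579% and 0% of kept barcodes by its own threshold and so had not worked, and removal of the highest scores was an alternative. TMM factors came from edgeR 4.0.16 in R 4.3.3. The size rule was also run on simulated counts with changes larger than 1.5-fold and no spread between cells or mice. That run does not test the calls made here. Positions are from GENCODE and promoters from RefSeq.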

Additional observations from a re-analysis of the deposited data

Results flagged for a closer look

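By the size rule, 8 genes went opposite ways between the host genotypes in the MC38 tumor cells and in the B16F10 melanoma cells of the same series. In melanoma cells the rule called 173 of 4686 measured genes higher (3.69%) and 20 lower (0.427%). In MC38 tumor cells the shares were 0.817% higher and 0.986% lower. Ankrd37 had a log2 fold of 0.86 in MC38 tumor cells (11.6 and 21.9 CPM in the WT and Lrrc25-/- pools) and -0.71 in melanoma cells (30.9 and 18.5 CPM). Ier3 had a log2 fold of 0.62 in MC38 tumor cells (363 and 559 CPM) and -0.60 in melanoma cells (212 and 138.9 CPM). The other 6 were lower in MC38 tumor cells and higher in melanoma cells of the Lrrc25-/- pools. Their log2 folds were -0.68 and 0.80 for Gm28153, -0.64 and 1.33 for Bnc2, and -0.59 and 1.27 for Cdk8. For the mitochondrial genes they were -0.69 and 1.29 for mt-Nd2, -1.84 and 2.36 for mt-Nd3, and -0.61 and 1.21 for mt-Nd4l. Each value comes from 1 pool, and the difference between the models was not tested. The melanoma cells of the Lrrc25-/- pool had a median of 4340 UMIs against 21802 in the WT pool. Their median share of mitochondrial UMIs was 1.75% in the Lrrc25-/- pool, against 0.353% in the WT pool. The part of depth and of mitochondrial share in the melanoma values was not tested.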

How the results depend on the processing

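No paired analysis was possible because there was 1 pool per group, and for the same reason no replicate could be left out. Genes higher and lower in the Lrrc25-/- pool, 53 and 64, came to 576 and 839 in cells with no C1q UMI and at most 1 of Lyz2 (247 and 32 cells), 68 and 39 with TMM, 43 and 34 with a pseudocount of 5, 196 and 250 with no CPM minimum, 26 and 36 with a minimum of 50, 6 and 2 at 2-fold, 187 and 391 after thinning to 2000 UMIs, and 82 and 97 with an equal mix of cycling and other cells. In the first of these settings the log2 fold was -0.10 for Fdps, -0.16 for Gbp5, -0.11 for Cxcl16, -0.23 for Acat2 and -0.15 for Ubd, and the list median 0.0054 for oncofetal, 0.0666 for tumor suppressor and mismatch repair and -0.0276 for sterol genes. Thinning gave medians of -0.0363 for retinoid and -0.0252 for type I interferon genes. The cause was not tested, beyond the smaller number of cells or UMIs. Cd74, H2-Aa, H2-Ab1 and H2-Eb1 passed the size rule in all 15 settings and Irf1 in 14.

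The share of tumor cells in the WT and Lrrc25-/- pools was 4.18% and 2.48% with stricter markers, 7.41% and 3.90% among barcodes of at least 2000 UMIs, and 9.16% and 5.63% without the limit on Pdgfra and Dcn, a setting chosen after seeing the data. It was 6.09% in the WT pool without the highest Scrublet scores and 3.41% in the Lrrc25-/- pool with looser markers. The share with cell-cycle UMIs was 71.4% and 67.4% at 1000 UMIs and 99.0% in both pools unthinned. With stricter markers this share was 86.1% and 82.6%, and with looser markers 85.2% and 82.8%. In the Lrrc25-/- pool it was 80.7% without the highest Scrublet scores and 81.0% without the limit on Pdgfra and Dcn. Cells were thinned anew in each setting, so these shares also vary with the random draw. Removal of the highest scores left 486 of 499 cells, too few gone to lower the share that far by itself.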
